A study of Homo sapiens with 15 samples.

Results

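Collagen genes were followed across 5 transfection conditions of HGrC1, an immortalized line of human granulosa cells without the FOXL2 mutation that was studied. They were taken as every gene of the deposited gene table whose symbol reads COL, a number, A and a number, which gave 44 of 37787 genes. By the assembly that each chain joins, these were 11 fibrillar, 9 network, 5 beaded filament, 10 FACIT, 2 multiplexin, 4 transmembrane and 1 anchoring fibril gene, and 2 of other types. A filter on low counts left 25 of the 44 for testing, and the other 19 are accounted for with the levels.

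Collagens are matrix proteins whose α chains wind around each other into a helix before secretion. Fibrillar chains (types I, II, III, V, XI, XXIV and XXVII) pack into fibrils, and network chains (types IV, VIII and X) join into sheets, of which type IV forms the scaffold of basement membranes. In the ovary, granulosa cells rest on such a basement membrane at the wall of the follicle and contribute to its type IV collagen. FACIT collagens lie on the surface of fibrils, multiplexins belong to basement membranes and can release fragments such as endostatin, and transmembrane collagens stay in the cell surface.

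All cells were at passage 14, were lipofected for 4 h and were then kept without serum for 24 h. The condition called Vectors received empty plasmids. FOXL2WT received SMAD3 and wild-type FOXL2, a forkhead transcription factor of granulosa cells, and FOXL2C134W received SMAD3 and the mutant form found in adult-type granulosa cell tumours. FOXL2WT + FOXO1 and FOXL2C134W + FOXO1 received in addition FOXO1-3A, a form of FOXO1 that stays in the nucleus and is constantly active. SMAD3, a signal carrier of the TGF-β pathway, was therefore added in every condition but Vectors, on top of the FOXL2, SMAD3 and FOXO1 genes of the cells themselves. Each condition had 3 libraries, A, B and C, of polyadenylated RNA, and since the labels do not say whether these came from separate cultures, p-values measure only the spread between these samples.

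The libraries held 14962245 to 25339094 estimated counts, and 13868 genes were tested. In CPM, counts scaled to the size of the library, FOXL2 averaged 8.73 in Vectors, 561 in FOXL2WT, 147 in FOXL2C134W, 384 in FOXL2WT + FOXO1 and 152 in FOXL2C134W + FOXO1. SMAD3 averaged 249.3 CPM in Vectors, 2768 in FOXL2WT, 843 in FOXL2C134W, 969 in FOXL2WT + FOXO1 and 392 in FOXL2C134W + FOXO1. FOXO1 averaged between 12.0 and 13.2 CPM in the conditions that lacked FOXO1-3A, 117 in FOXL2WT + FOXO1 and 43.2 in FOXL2C134W + FOXO1. The amounts of the transfected RNAs thus differed between conditions, and their part in the collagen differences was not tested. For protein, the paper reports balanced amounts of both FOXL2 forms and of FOXO1, from an immunoblot of cells cultured in parallel. Of 12 granulosa markers, FSHR was at 0 in all libraries, and CYP19A1 and INHA had at most 4 counts in a library. AMH, STAR, CYP11A1 and HSD17B1 had condition means from 1.06 to 4.53 CPM, and NR5A1 and INHBA from 5.14 to 8.01 CPM. GATA4, WT1 and FST were the highest, at means of 41.6 CPM or more. The summed granulosa markers ran from 237 to 262 CPM over all libraries. Of 5 theca and stroma markers, THY1 averaged 69.3 to 73.5 CPM by condition and PDGFRA 1.01 to 1.54 CPM. CYP17A1, DCN and LUM had at most 1, 5 and 6 counts in a library. The 4 endothelial markers summed to 19.2 to 22.5 CPM in Vectors and to 13.1 to 18 CPM in the other conditions, with KDR the highest of them and PECAM1 and VWF at no more than 2.31 CPM. The 2 epithelial markers, EPCAM and CDH1, summed to 5.18 to 7.92 CPM over all libraries. Of 3 leukocyte markers, CD68 averaged 110.4 CPM in Vectors and 91.3 to 94.9 CPM in the other conditions, while PTPRC and CD3E had at most 5 and 1 counts in a library. The endothelial sum and CD68 were thus lower than in Vectors in all other conditions, including FOXL2C134W. Their part in the collagen differences against Vectors was not tested. In bulk RNA, fewer cells with a given collagen and less of its RNA per cell cannot be told apart.

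The start regions of COL5A1, COL18A1 and COL4A2 are shown first, as RefSeq gives them on GRCh38.p14. These genes had the largest called increases in FOXL2C134W over FOXL2WT, at log2 fold changes of 0.56, 0.45 and 0.43. COL4A1, at 0.24, is shown because it shares its stretch with COL4A2. Other collagen genes with larger increases than COL4A1, such as COL13A1 (0.42) and COL12A1 (0.40), are not shown. COL4A1 and COL4A2 lie head to head, and the 126 bases between their RefSeq start sites, chr13:110307158-110307283, are shown. For COL5A1 (chr9:134641553-134641802) and COL18A1 (chr21:45404915-45405164) the 250 bases upstream of the start are given. All are on the plus strand, 5′ to 3′, and capitals mark the GC box GGCGGG or its reverse complement CCCGCC, the core that Sp-family factors are known to bind.
COL4A1-COL4A2: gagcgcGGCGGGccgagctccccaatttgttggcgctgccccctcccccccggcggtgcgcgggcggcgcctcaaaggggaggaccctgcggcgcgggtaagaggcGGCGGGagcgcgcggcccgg
COL5A1: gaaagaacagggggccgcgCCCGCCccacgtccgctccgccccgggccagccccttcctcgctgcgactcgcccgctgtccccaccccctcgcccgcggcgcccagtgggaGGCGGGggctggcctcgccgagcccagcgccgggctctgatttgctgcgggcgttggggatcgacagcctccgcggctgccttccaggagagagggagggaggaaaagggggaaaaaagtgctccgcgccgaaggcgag
COL18A1: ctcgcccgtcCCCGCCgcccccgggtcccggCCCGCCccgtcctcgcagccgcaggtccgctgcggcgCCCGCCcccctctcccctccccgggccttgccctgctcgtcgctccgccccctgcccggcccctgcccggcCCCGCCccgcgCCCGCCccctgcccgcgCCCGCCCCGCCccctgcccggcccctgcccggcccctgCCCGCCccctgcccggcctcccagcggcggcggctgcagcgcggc

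The shared type IV stretch was 80.2% G and C with 2 GC boxes, the COL5A1 stretch 74.0% with 2, and the COL18A1 stretch 88.4% with 8, some of them overlapping. The forkhead core TAAACA, the SMAD core CAGAC and the TATA box TATAAA, read on both strands, were absent from all 3 stretches. Over the RefSeq windows from 250 bases before to 50 after the start, in which 17 of the 25 tested collagen genes matched by symbol, the GC box was in 14 of 17 collagen genes and 48.3% of all 27305 genes. TAAACA was in 1 of 17 (COL13A1) against 14.7% of all genes. CAGAC was in 9 of 17 against 50%, among them COL12A1 and COL6A3, which were called higher in FOXL2C134W than in FOXL2WT. TATAAA was in 5 of 17 against 14.0%, among them COL18A1. The COL18A1 stretch printed above held no TATAAA, so it and the window counted here are not the same. These are counts of letters in a window and not of bound sites. The 17 collagen genes had passed the filter on low counts, while the 27305 genes were not filtered by counts, so the 2 sets are not alike.

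Levels per transcript length, in TPM, which scales for transcript length and library size, ranked 3 chains above the rest. Over all libraries COL4A1 averaged 508 TPM, COL1A1 449.6 TPM, COL4A2 399 TPM and COL8A1 182 TPM, and these 4 genes made up 84.7% of the collagen TPM. COL5A2 (72.2 TPM), COL5A1 (55.1), COL3A1 (37.8) and COL18A1 (31.1) followed and brought the share to 95.4%. COL4A1 and COL1A1 did not differ beyond their spread in Vectors, at 558 ± 24 and 542 ± 55.6 TPM (SD, n = 3), whereas in FOXL2WT COL4A1 stood at 463 ± 12.1 and COL1A1 at 372 ± 25.9 TPM. In FOXL2C134W, COL1A1 and COL4A2 lay together at 477 ± 22.6 and 475 ± 11.5 TPM. COL3A1 and COL18A1 lay at 35.6 ± 3.41 and 38.5 ± 1.45 TPM in FOXL2C134W, where COL18A1 had the higher mean, and at 46.6 ± 4.38 and 31.5 ± 3.13 TPM in Vectors, where COL3A1 had. COL5A1 was above COL3A1 in every condition and came within the spread of COL5A2 in FOXL2C134W, at 67.7 ± 3.83 against 71.2 ± 2.28 TPM.

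COL1A2, which encodes the partner of COL1A1 in ordinary type I collagen, was nearly absent. Its estimated counts ran from 5 to 33 per library, or 1.44, 1.19 and 1.28 in Vectors, 0.532, 0.671 and 1.11 in FOXL2WT, 0.475, 0.752 and 0.737 in FOXL2C134W, 0.336, 0.65 and 1.2 in FOXL2WT + FOXO1, and 0.785, 0.767 and 0.559 in FOXL2C134W + FOXO1 CPM. COL1A1 had 1062 CPM or more in each of those libraries, and a TPM ratio of COL1A2 to COL1A1 of no more than 0.0028 was found in all of them. Of the 19 genes that were not tested, COL20A1, COL22A1 and COL6A5 had 0 counts in all libraries, which allows up to 3 counts in each. COL10A1, COL19A1, COL21A1, COL23A1, COL24A1, COL25A1 and COL9A1 reached at most 3 counts in a library, and COL11A1 with 14 and COL11A2 with 10 had the highest counts of the remaining 9. COL2A1, the chain of cartilage fibrils, had at most 5. All 25 tested genes averaged at least 10 counts in every condition, so that none had passed the filter through 1 condition alone.

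**Figure D1:**
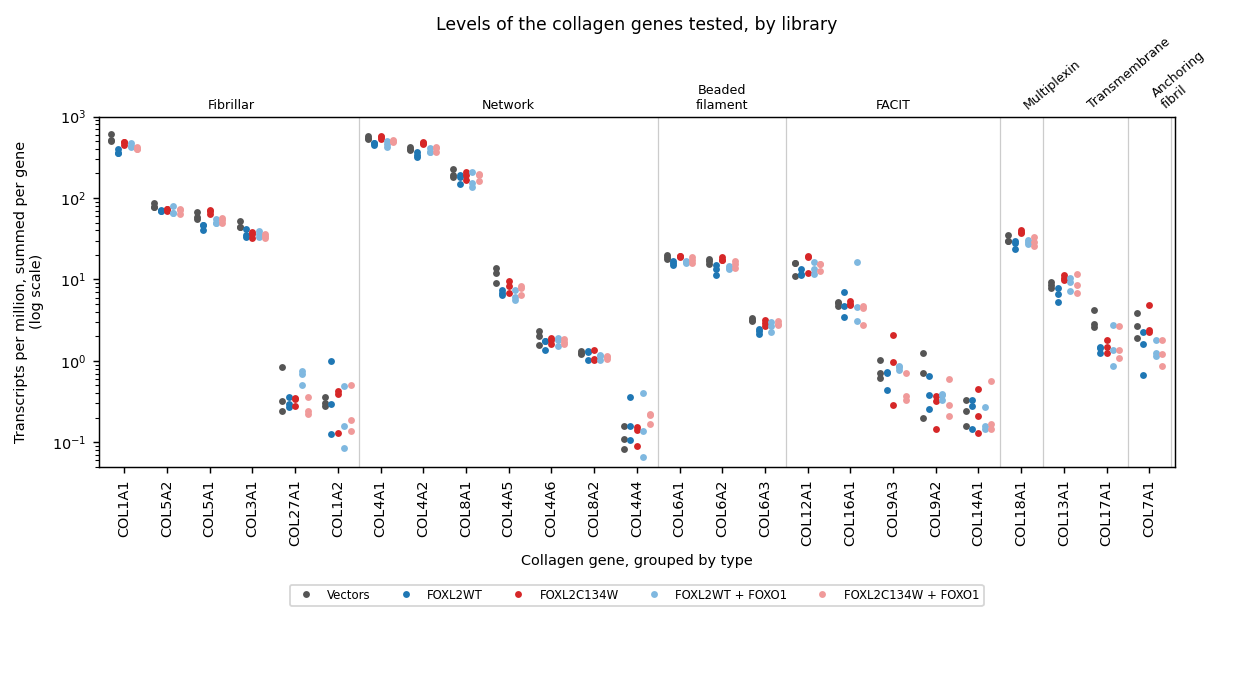
Level of each of the 25 tested collagen genes in each library, in TPM on a log axis, grouped by type and coloured by condition. COL4A1, COL1A1 and COL4A2 stand above all other genes in every library, and COL1A2 stays at 0.989 TPM or below.

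As a share of the TPM of all genes, the 44 genes together held 0.201 ± 0.0143% in Vectors (SD, n = 3), 0.160 ± 0.00940% in FOXL2WT, 0.200 ± 0.00966% in FOXL2C134W, 0.172 ± 0.0148% in FOXL2WT + FOXO1 and 0.176 ± 0.00917% in FOXL2C134W + FOXO1. By library the share was 0.217, 0.191 and 0.196% in Vectors, 0.160, 0.15 and 0.169% in FOXL2WT, and 0.189, 0.205 and 0.207% in FOXL2C134W. FOXL2WT lay below both other conditions in every library, and Vectors and FOXL2C134W overlapped. The FOXO1 conditions held 0.160, 0.189 and 0.168% in FOXL2WT + FOXO1 and 0.165, 0.183 and 0.179% in FOXL2C134W + FOXO1, and overlapped each other and FOXL2WT. Of the estimated counts, which are not scaled for length, the 44 genes averaged 0.825% in Vectors, 0.682% in FOXL2WT and 0.834% in FOXL2C134W. They averaged 0.719% of counts in FOXL2WT + FOXO1 and 0.729% in FOXL2C134W + FOXO1.

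FOXL2C134W was compared with FOXL2WT, with SMAD3 added in both. The mutation was not the only difference between them. FOXL2 RNA averaged 147 CPM in FOXL2C134W and 561 CPM in FOXL2WT, and SMAD3 RNA 843 and 2768 CPM. These are amounts of RNA, whereas the paper reports balanced protein of the FOXL2 forms by immunoblot. The part of these amounts was not tested. Of the 25 collagen genes, 11 were higher in FOXL2C134W and 0 were lower at an edgeR quasi-likelihood test with Benjamini-Hochberg adjusted p under 0.05, whereas 7.13% of all tested genes were called higher. The 11 were COL4A1, COL4A2 and COL8A1 of 7 network genes, COL1A1 and COL5A1 of 6 fibrillar genes, all 3 tested type VI genes (COL6A1, COL6A2 and COL6A3), COL12A1 of 5 FACIT genes, COL18A1 and COL13A1. Their log2 fold changes were between 0.14 and 0.56, that is, 10.2% to 47.8% more RNA. The median over the 25 genes was 0.21, beside -0.01 over all tested genes, and 19 of 25 were above 0.

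FOXL2WT against Vectors showed collagen genes on the lower side. There, 12 of 25 were lower in FOXL2WT and 0 were higher, against 3.61% of all tested genes called lower, with a median of -0.23 over the collagen genes. They were COL1A1, COL3A1, COL5A1 and COL5A2 among the fibrillar genes, COL4A1, COL4A2, COL4A5 and COL4A6 among the network genes, COL6A1 and COL6A3, COL7A1, and COL17A1. FOXL2C134W against Vectors gave 2 higher (COL4A2 and COL18A1) and 4 lower (COL1A1, COL3A1, COL5A2 and COL17A1), where 7.48% of all tested genes were called higher and 7.24% lower. These 3 comparisons share libraries, so their values are set side by side and their overlap is not a separate result.

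The number of calls depended on single libraries, over all tested genes as well. Without FOXL2WT replicate B, 7 collagen genes were called between FOXL2C134W and FOXL2WT, and 772 of all genes in place of 1560. Without Vectors replicate A, whose collagen share was the highest of that condition, 6 were called between FOXL2WT and Vectors, and 305 of all genes in place of 842. Without FOXL2WT replicate B these numbers were 7 and 345. Between FOXL2C134W and Vectors, 3 were called without FOXL2C134W replicate B and 4 without Vectors replicate A, with 1275 and 1588 of all genes in place of 2041. In DESeq2 with transcript length offsets 8 were called between FOXL2C134W and FOXL2WT, and 8 between FOXL2WT and Vectors, with 764 and 496 of all genes. The log2 fold changes of the genes no longer called there were 0.43 for COL12A1, 0.31 for COL6A3 and 0.08 for COL8A1 in the former comparison. In the latter they were -1.22 for COL17A1, -0.89 for COL7A1, -0.28 for COL4A6 and -0.20 for COL5A2. Those of COL12A1, COL6A3, COL17A1 and COL7A1 were larger than in edgeR, with larger standard errors.

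**Figure D2:**
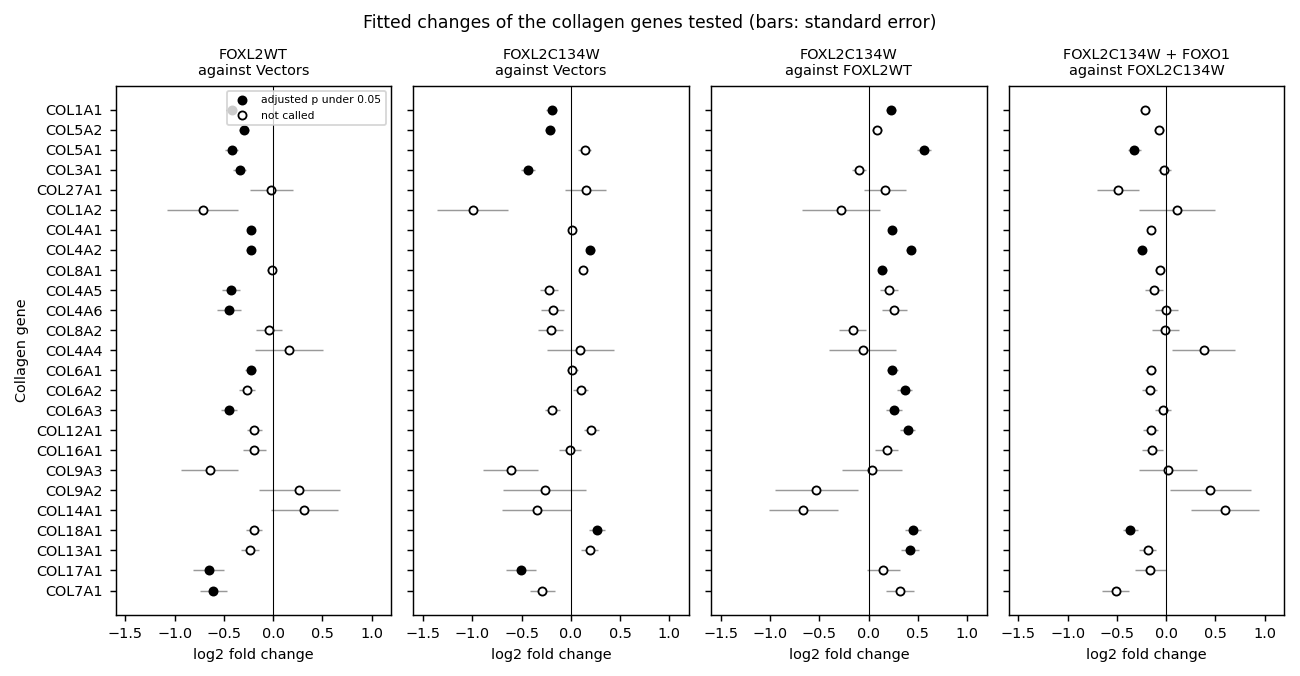
Log2 fold change with its standard error for the 25 tested collagen genes in 4 comparisons, filled where the edgeR adjusted p was under 0.05 and open otherwise. The 12 filled points of FOXL2WT against Vectors lie left of 0, the 11 of FOXL2C134W against FOXL2WT lie right of 0, and the 3 of FOXL2C134W + FOXO1 against FOXL2C134W lie left of 0.

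Among the network genes, COL4A1 (chr13:110148963-110307157, minus strand) and COL4A2 (chr13:110305812-110513209, plus strand) encode the chains of the most common type IV collagen. Coordinates here and below are those of the whole gene in GENCODE 44 on GRCh38. COL4A1 stood at 2937, 2811 and 2839 in Vectors, 2498, 2347 and 2500.0 in FOXL2WT, 2766, 2963 and 2947 in FOXL2C134W, 2379, 2562 and 2454 in FOXL2WT + FOXO1, and 2514, 2647 and 2642 in FOXL2C134W + FOXO1 CPM. All FOXL2WT libraries were below all libraries of Vectors and FOXL2C134W, which overlapped. The log2 fold change, with its standard error (SE), was -0.23 (SE 0.04, adjusted p = 0.0018 in edgeR) from Vectors to FOXL2WT, 0.24 (SE 0.04, adjusted p = 6.7e-04 in edgeR) between FOXL2C134W and FOXL2WT, and 0.01 (adjusted p = 0.86 in edgeR) between FOXL2C134W and Vectors, which turned to -0.08 with an offset for transcript length and to -0.09, called lower (adjusted p = 0.013 in edgeR), with offsets for length and GC content.

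COL4A2 stood at 1959, 1779.9 and 1795 in Vectors, 1608, 1484 and 1633 in FOXL2WT, 2042, 2136 and 2175 in FOXL2C134W, 1692, 1753 and 1689 in FOXL2WT + FOXO1, and 1679, 1871 and 1801 in FOXL2C134W + FOXO1 CPM. The 3 FOXL2C134W libraries were the highest of all 15, and those of FOXL2WT included the lowest. COL4A2 differed by 0.43 (SE 0.05, adjusted p = 2.3e-05 in edgeR) between FOXL2C134W and FOXL2WT, and by 0.20 (SE 0.05, adjusted p = 0.0075 in edgeR) between FOXL2C134W and Vectors, the latter lost with offsets for length and GC content. It fell from Vectors to FOXL2WT by 0.23 (SE 0.05, adjusted p = 0.0068 in edgeR) on the log2 scale, a call that was lost without Vectors replicate A (-0.18), or FOXL2WT replicate B (-0.19). In GENCODE, though not in RefSeq, COL4A2 begins within COL4A1 through a transcript of 484 bases, so that the stretch shown above lies inside COL4A2, while its transcript of 6446 bases begins at the RefSeq start. The genes thus overlap on opposite strands, and how strand was used in the estimation is not given in the sources used here.

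COL8A1 (chr3:99638475-99799226) and COL8A2 encode type VIII collagen, which forms short-chain networks. COL8A1 stood at 495, 455 and 463 in Vectors, 480.1, 456 and 462 in FOXL2WT, 490.1, 516 and 534 in FOXL2C134W, 436, 476 and 456 in FOXL2WT + FOXO1, and 486, 476 and 508 in FOXL2C134W + FOXO1 CPM. Its FOXL2C134W libraries were above those of FOXL2WT by a narrow margin, with a log2 fold change of 0.14 (SE 0.04, adjusted p = 0.049 in edgeR), and Vectors overlapped both. The call was lost with the length offset explained below (0.09), and without FOXL2WT replicate A (0.16), B (0.13) or C (0.14), or FOXL2C134W replicate B (0.14) or C (0.11). COL8A2 was much lower, at condition means from 4.07 to 4.72 CPM, and was called in no comparison.

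The other type IV genes were less abundant. COL4A5 (chrX:108439838-108697545), a chain of the basement membranes of kidney and other epithelia, stood at 38.9, 32.4 and 34.7 in Vectors, 25.7, 25.4 and 27.6 in FOXL2WT, 26.8, 29.8 and 34.5 in FOXL2C134W, 24.2, 29.9 and 27 in FOXL2WT + FOXO1, and 27.6, 29.4 and 26.6 in FOXL2C134W + FOXO1 CPM. Every Vectors library was above every FOXL2WT library, and the change was -0.43 (SE 0.09, adjusted p = 0.0089 in edgeR), lost without Vectors replicate A (-0.35), or FOXL2WT replicate B (-0.41). COL4A6 (chrX:108155607-108439497), its neighbour on the X chromosome in head-to-head order, stood at 10.4, 7.61 and 9.12 in Vectors, 5.8, 7.25 and 6.97 in FOXL2WT, 7.16, 7.61 and 9.26 in FOXL2C134W, 8.21, 7.19 and 7.65 in FOXL2WT + FOXO1, and 8.08, 7.92 and 8.0 in FOXL2C134W + FOXO1 CPM. It gave -0.45 (SE 0.12, adjusted p = 0.041 in edgeR) against Vectors, and the call was lost without Vectors replicate A (-0.33) or C (-0.44), or FOXL2WT replicate A (-0.36), B (-0.50) or C (-0.49). COL4A4 was at condition means of 0.973 to 1.37 CPM and was called in no comparison, and COL4A3 had at most 5 counts in a library.

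**Figure D3:**
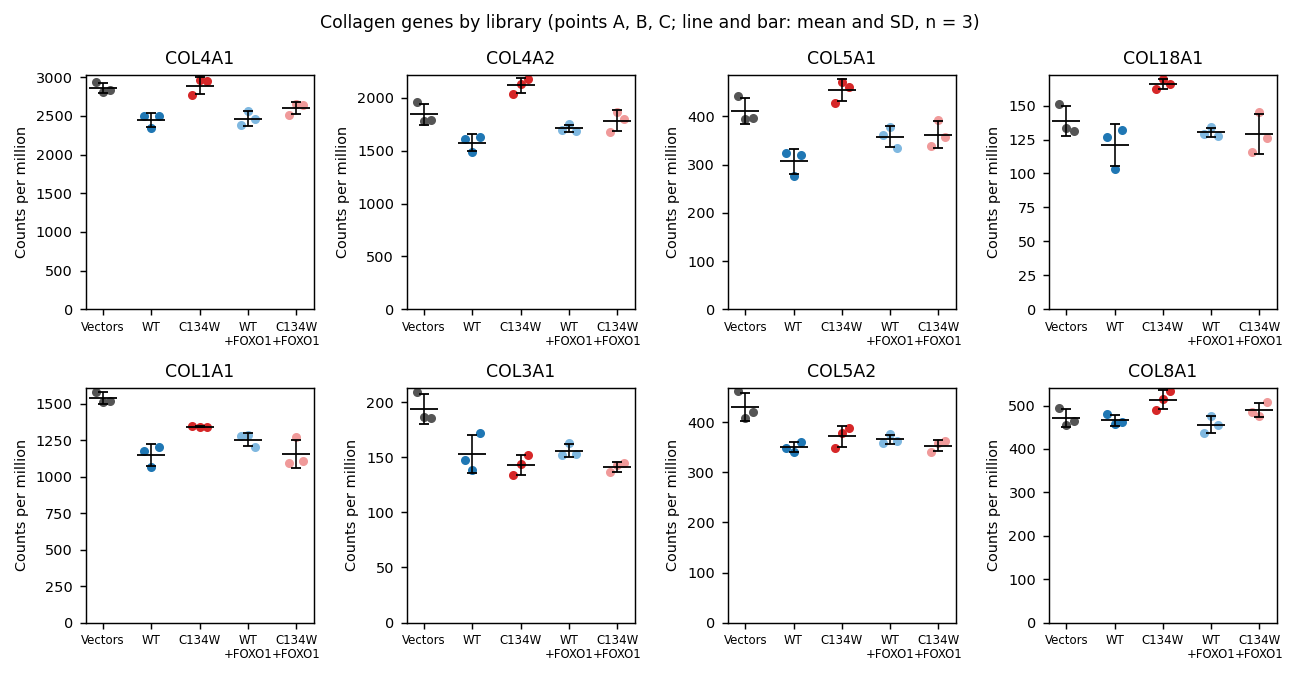
CPM of 8 collagen genes in each library (points), with the mean and SD of each condition (n = 3). FOXL2WT is lower than Vectors in every library for COL4A1, COL4A2, COL5A1, COL1A1, COL3A1 and COL5A2, and FOXL2C134W is above FOXL2WT in every library for COL4A1, COL4A2, COL5A1, COL18A1, COL1A1 and COL8A1.

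Of the fibrillar genes, COL5A1 (chr9:134641803-134844843), whose chain in type V collagen regulates the assembly of type I fibrils, showed the largest called change between FOXL2C134W and FOXL2WT of all collagen genes. It stood at 441, 395 and 397 in Vectors, 324, 277 and 320.3 in FOXL2WT, 429, 472 and 462 in FOXL2C134W, 361, 378 and 336 in FOXL2WT + FOXO1, and 338, 392 and 357 in FOXL2C134W + FOXO1 CPM. FOXL2WT held the 3 lowest of the 15 libraries, and Vectors and FOXL2C134W overlapped. The change from FOXL2WT to FOXL2C134W was 0.56 (SE 0.07, adjusted p = 3.8e-05 in edgeR), and that from Vectors to FOXL2WT was -0.42 (SE 0.07, adjusted p = 8.4e-04 in edgeR). Between FOXL2C134W and Vectors the value was 0.14 (adjusted p = 0.16 in edgeR), and it was -0.02 with offsets for length and GC content.

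COL5A2 (chr2:189031898-189225312, minus strand), the partner of COL5A1 in type V collagen, was called lower in both FOXL2WT and FOXL2C134W than in Vectors. It stood at 463, 409 and 421 in Vectors, 349, 341 and 360.4 in FOXL2WT, 348, 378 and 389 in FOXL2C134W, 359, 376 and 364 in FOXL2WT + FOXO1, and 340.3, 359 and 362 in FOXL2C134W + FOXO1 CPM. Vectors was above the other conditions in every library, and FOXL2WT and FOXL2C134W overlapped. The change was -0.30 (SE 0.05, adjusted p = 0.0011 in edgeR) from Vectors to FOXL2WT and -0.21 (SE 0.05, adjusted p = 0.0061 in edgeR) from Vectors to FOXL2C134W, the latter lost without Vectors replicate A (-0.15). Between FOXL2C134W and FOXL2WT it was 0.09 (adjusted p = 0.29 in edgeR), and -0.06 with the length offset.

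COL3A1 (chr2:188974373-189012746), the chain of the thin fibrils of soft tissues, lies next to COL5A2 on chromosome 2. It stood at 209, 187 and 186 in Vectors, 148, 138 and 172 in FOXL2WT, 133.8, 144 and 152 in FOXL2C134W, 152, 163 and 153 in FOXL2WT + FOXO1, and 136, 143 and 145 in FOXL2C134W + FOXO1 CPM. All Vectors libraries were above those of every other condition. The decrease against Vectors was -0.34 (SE 0.07, adjusted p = 0.0049 in edgeR) in FOXL2WT and -0.44 (SE 0.07, adjusted p = 2.4e-04 in edgeR) in FOXL2C134W. COL3A1 was the abundant fibrillar gene with the lower mean in FOXL2C134W than in FOXL2WT, at -0.10 (adjusted p = 0.41 in edgeR), which became -0.21 and was called with the length offset, and was 0.01 without FOXL2WT replicate C.

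COL1A1 (chr17:50184101-50201632, minus strand), the main chain of type I collagen, stood at 1582, 1514 and 1517 in Vectors, 1178, 1062 and 1204 in FOXL2WT, 1345, 1340.2 and 1342 in FOXL2C134W, 1276, 1283 and 1199 in FOXL2WT + FOXO1, and 1096, 1269 and 1107 in FOXL2C134W + FOXO1 CPM. The conditions without FOXO1 were ordered Vectors, FOXL2C134W and FOXL2WT with no overlap. COL1A1 fell from Vectors to FOXL2WT by 0.42 (SE 0.05, adjusted p = 8.4e-05 in edgeR) on the log2 scale. The change was 0.23 (SE 0.05, adjusted p = 0.0092 in edgeR) between FOXL2C134W and FOXL2WT, lost without FOXL2WT replicate B (0.18), and -0.20 (SE 0.05, adjusted p = 0.016 in edgeR) between FOXL2C134W and Vectors, lost without Vectors replicate A (-0.17), or FOXL2C134W replicate B (-0.19). For COL1A2 (chr7:94394895-94431227), the corresponding values against Vectors were -0.72 (adjusted p = 0.27 in edgeR) in FOXL2WT and -0.99 (adjusted p = 0.073 in edgeR) in FOXL2C134W, neither of them called. COL27A1, the last tested fibrillar gene, was at condition means of 1.37 to 1.93 CPM and was not called in any comparison.

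The type VI genes encode the chains of beaded filaments, which link cells to the surrounding fibrils. COL6A1 (chr21:45981770-46005050) stood at 65.5, 60.4 and 58.9 in Vectors, 55.4, 49.8 and 52.3 in FOXL2WT, 63.5, 60.5 and 62.4 in FOXL2C134W, 56.9, 51.6 and 55.4 in FOXL2WT + FOXO1, and 52.6, 59.2 and 55.3 in FOXL2C134W + FOXO1 CPM. FOXL2WT was below Vectors and FOXL2C134W in every library. The change was 0.24 (SE 0.06, adjusted p = 0.011 in edgeR) between FOXL2C134W and FOXL2WT, lost without FOXL2WT replicate B (0.21) and with the length offset. It was -0.23 (SE 0.06, adjusted p = 0.027 in edgeR) between FOXL2WT and Vectors, lost without Vectors replicate A (-0.18) or B (-0.24), or FOXL2WT replicate B (-0.20) or C (-0.225).

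COL6A2 (chr21:46098112-46132848), which lies on chromosome 21 downstream of COL6A1, stood at 40.3, 36.5 and 38 in Vectors, 33.1, 27.3 and 34.6 in FOXL2WT, 42.6, 39.9 and 40.6 in FOXL2C134W, 34.1, 34.5 and 32.2 in FOXL2WT + FOXO1, and 33, 39.7 and 36.9 in FOXL2C134W + FOXO1 CPM. FOXL2WT was again below both conditions in every library. The difference between FOXL2C134W and FOXL2WT was 0.37 (SE 0.08, adjusted p = 0.0052 in edgeR), and that between FOXL2WT and Vectors, -0.27 (adjusted p = 0.053 in edgeR), was not past the threshold. The latter was called in 7 of 9 alternatives that kept all libraries, with values from -0.31 to -0.25, among them DESeq2 (adjusted p = 0.022). COL6A3 (chr2:237324003-237414328, minus strand) stood at 24, 24.5 and 21.8 in Vectors, 15.7, 18.1 and 17.8 in FOXL2WT, 19.8, 21.8 and 20.1 in FOXL2C134W, 17.8, 21.9 and 20.0 in FOXL2WT + FOXO1, and 20.2, 19.9 and 20.1 in FOXL2C134W + FOXO1 CPM. Its libraries in FOXL2WT lay below those of Vectors, and the change was -0.45 (SE 0.08, adjusted p = 0.0026 in edgeR). Between FOXL2C134W and FOXL2WT it was 0.26 (SE 0.08, adjusted p = 0.045 in edgeR), lost without FOXL2WT replicate A (0.20), B (0.30) or C (0.30), or FOXL2C134W replicate B (0.22) or C (0.28), and 0.06 with the length offset.

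COL18A1 (chr21:45405165-45513720), the multiplexin that gives rise to endostatin, stood at 151, 133 and 131 in Vectors, 127, 104 and 132 in FOXL2WT, 163, 169.6 and 166 in FOXL2C134W, 129, 134.1 and 128 in FOXL2WT + FOXO1, and 116, 145 and 126 in FOXL2C134W + FOXO1 CPM. The FOXL2C134W libraries were narrowly grouped above all 12 others. The difference was 0.45 (SE 0.08, adjusted p = 0.0014 in edgeR) between FOXL2C134W and FOXL2WT. Against Vectors it was 0.26 (SE 0.08, adjusted p = 0.032 in edgeR), lost without Vectors replicate B (0.24) or C (0.23), or FOXL2C134W replicate B (0.25) or C (0.26), and 0.10 with offsets for length and GC content. COL15A1, the other multiplexin, had at most 7 counts in a library. SLC19A1 and antisense transcripts overlap COL18A1 on the other strand.

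COL12A1 (chr6:75084326-75206267, minus strand), a long FACIT chain of fibril surfaces, stood at 113, 103 and 110.1 in Vectors, 98.8, 101 and 86.9 in FOXL2WT, 106, 140.3 and 130.1 in FOXL2C134W, 101, 112 and 106 in FOXL2WT + FOXO1, and 109, 112 and 117 in FOXL2C134W + FOXO1 CPM. FOXL2C134W was above FOXL2WT in every library but had the widest spread of the conditions, with replicate A close to the level of Vectors. The difference was 0.40 (SE 0.08, adjusted p = 0.0029 in edgeR), and it became 0.18 with the length offset. Of the other FACIT genes, COL16A1 was at condition means of 7.24 to 8.41 CPM, and COL9A2, COL9A3 and COL14A1 were at 1.21 CPM or less, and none was called.

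The transmembrane genes gave calls in different comparisons. COL13A1 (chr10:69801880-69964275), a collagen of cell adhesion sites, stood at 14.8, 14.3 and 12.3 in Vectors, 12.2, 10.8 and 12.1 in FOXL2WT, 15, 16 and 16.2 in FOXL2C134W, 14.4, 12.8 and 12.9 in FOXL2WT + FOXO1, and 12.5, 15 and 13.9 in FOXL2C134W + FOXO1 CPM. Its FOXL2C134W libraries were above all others, and the difference from FOXL2WT was 0.42 (SE 0.09, adjusted p = 0.0052 in edgeR). COL17A1 (chr10:104031286-104085880, minus strand), a component of hemidesmosomes, stood at 5.97, 5.29 and 4.88 in Vectors, 3.35, 3.02 and 3.76 in FOXL2WT, 3.28, 4.1 and 4.01 in FOXL2C134W, 4.37, 3.29 and 3.27 in FOXL2WT + FOXO1, and 3.0, 3.07 and 4.09 in FOXL2C134W + FOXO1 CPM. Vectors was the highest condition with no overlap. The change was -0.66 (SE 0.16, adjusted p = 0.019 in edgeR) in FOXL2WT, lost without Vectors replicate A (-0.57), or FOXL2WT replicate A (-0.64) or B (-0.59), and -0.50 (SE 0.15, adjusted p = 0.031 in edgeR) in FOXL2C134W, lost without Vectors replicate A (-0.41) or B (-0.515), or FOXL2C134W replicate A (-0.40), B (-0.56) or C (-0.54).

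COL7A1 (chr3:48564073-48595329, minus strand) encodes the anchoring fibrils that fix basement membranes to the tissue below. It stood at 11.2, 7.12 and 8.6 in Vectors, 5.06, 5.97 and 6.58 in FOXL2WT, 7.44, 7.06 and 7.6 in FOXL2C134W, 7.06, 6.64 and 6.16 in FOXL2WT + FOXO1, and 5.22, 5.07 and 5.2 in FOXL2C134W + FOXO1 CPM. FOXL2WT was below Vectors in every library, with a change of -0.61 (SE 0.14, adjusted p = 0.012 in edgeR) that was lost without Vectors replicate A (-0.42), or FOXL2WT replicate A (-0.51). Between FOXL2C134W and FOXL2WT the value was 0.32 (adjusted p = 0.15 in edgeR).

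Collagen transcripts are long and rich in G and C, so the calls over the whole table were also counted by length and GC content. Of all tested genes with a mean transcript length over 5000 bases, 26.1% were higher in FOXL2C134W than in FOXL2WT, and 6 of the 11 collagen genes of that length were. Of those with GC content over 50%, 9.15% were higher, and 9 of 20 collagen genes were. Where both held, a class added after the values were seen, 44.8% of all tested genes and 5 of 9 collagen genes (COL18A1, COL4A1, COL4A2, COL5A1 and COL6A3) were called, with medians of 0.24 and 0.26. The share of collagen genes called in this class was near the background of genes of like length and GC content. The class held 5 of the 11 collagen genes called higher. COL1A1, COL6A1, COL6A2, COL8A1, COL12A1 and COL13A1 were called outside it, where the share over all genes was not counted.

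For FOXL2WT against Vectors the classes differed less. There, 6.11% of the long genes, 3.71% of the GC-rich genes and 12.2% of those with both were called lower, and of the collagen genes 7 of 11, 10 of 20 and 6 of 9 were. The medians in the last class were -0.10 over all its genes and -0.23 over its collagen genes. Offsets for length, or for length and GC content, were also put into the fit. Between FOXL2WT and Vectors, 13 and 14 collagen genes were then called. Between FOXL2C134W and FOXL2WT, 9 and 10 were called. Of these, 8 and 9 were among the 11 called higher without offsets, and COL3A1 was called lower with each. COL6A1 and COL6A3 were lost with each, and COL8A1 with the length offset. The sizes shrank between FOXL2C134W and FOXL2WT, for COL5A1 to 0.37 and 0.34 and for COL4A1 to 0.10 and 0.09. With both offsets they shrank for COL4A2 to 0.27, for COL1A1 to 0.14 and for COL6A1 to 0.14. The part of length and GC content in the differences was not tested beyond these values.

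**Figure D4:**
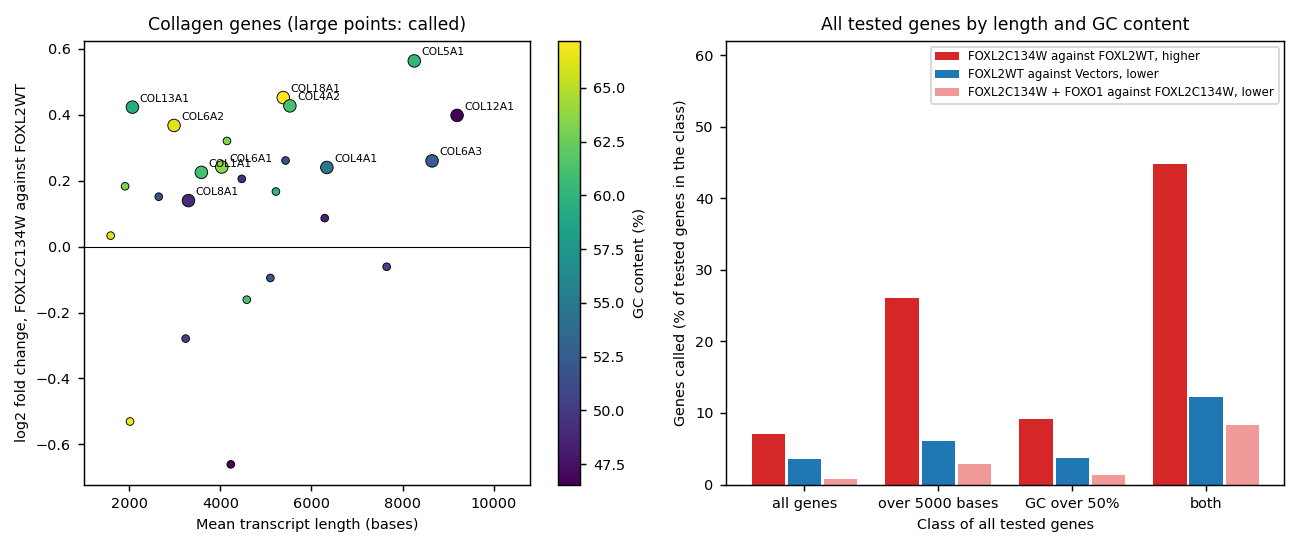
Left, log2 fold change of FOXL2C134W against FOXL2WT for the 25 tested collagen genes by mean transcript length, coloured by GC content, with called genes as large labelled points. Right, percent of all tested genes called in 3 comparisons for all genes, genes over 5000 bases, genes over 50% GC and genes with both, which reaches 44.8% in FOXL2C134W against FOXL2WT.

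The ratios of chains of one type are a description, since 3 libraries against 3 cannot give a p under 0.1 in the two-sided exact permutation test used. From TPM, the ratio of COL5A2 to COL5A1 was 1.3, 1.41 and 1.36 in Vectors, 1.54, 1.71 and 1.52 in FOXL2WT, 1.08, 1.02 and 1.06 in FOXL2C134W, 1.35, 1.45 and 1.34 in FOXL2WT + FOXO1, and 1.29, 1.25 and 1.36 in FOXL2C134W + FOXO1. The FOXL2C134W libraries were the lowest and those of FOXL2WT the highest, with no overlap. The log2 ratio of FOXL2C134W minus that of FOXL2WT was -0.59 ± 0.07 (pooled SD, n = 3 and 3), and that of FOXL2C134W + FOXO1 minus FOXL2C134W was 0.30 ± 0.05. Each gave an exact permutation p = 0.1.

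The ratio of COL4A2 to COL4A1 was 0.723, 0.713 and 0.725 in Vectors, 0.71, 0.707 and 0.778 in FOXL2WT, 0.881, 0.819 and 0.854 in FOXL2C134W, 0.853, 0.814 and 0.804 in FOXL2WT + FOXO1, and 0.757, 0.845 and 0.799 in FOXL2C134W + FOXO1. It was higher in every FOXL2C134W library than in every FOXL2WT library, by 0.22 ± 0.07 on the log2 scale (exact permutation p = 0.1), and the values with and without FOXO1 overlapped in FOXL2C134W (-0.09 ± 0.07, exact permutation p = 0.2). For COL6A2 to COL6A1 the differences were 0.15 ± 0.12 (exact permutation p = 0.3) and -0.07 ± 0.05 (exact permutation p = 0.1). For COL6A3 to COL6A1 they were 0.05 ± 0.17 (exact permutation p = 0.7) and 0.12 ± 0.11 (exact permutation p = 0.3). COL8A2 to COL8A1 gave -0.20 ± 0.27 (exact permutation p = 0.5) and 0.00 ± 0.17 (exact permutation p = 1), and COL1A2 to COL1A1 gave -0.61 ± 1.24 (exact permutation p = 0.6) and -0.03 ± 0.91 (exact permutation p = 1), which the few counts of COL1A2 leave imprecise. None of these 12 comparisons can pass a threshold of 0.05, before or after adjustment.

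**Figure D5:**
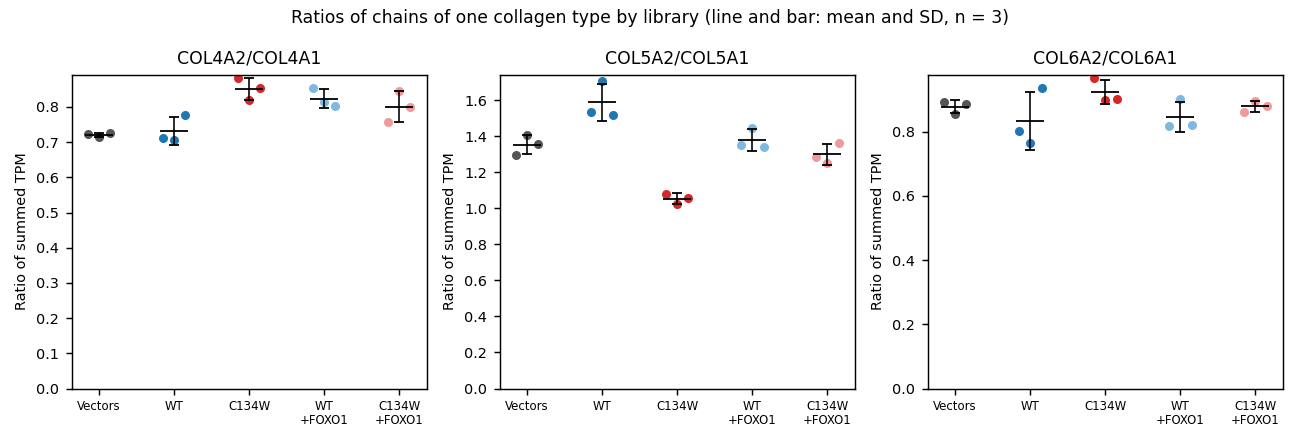
Ratio of summed TPM for 3 pairs of chains of one collagen type in each library, with the mean and SD of each condition (n = 3). The ratio of COL5A2 to COL5A1 is near 1.05 in FOXL2C134W and near 1.59 in FOXL2WT, and that of COL6A2 to COL6A1 overlaps between those conditions.

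Adding FOXO1-3A was compared next, to see what the active factor changes on top of each FOXL2 form. These comparisons share the FOXL2WT and FOXL2C134W libraries with those above. SMAD3 RNA was also lower with FOXO1-3A, at 969 against 2768 CPM in FOXL2WT and 392 against 843 CPM in FOXL2C134W, and its part was not tested. In FOXL2C134W the addition of FOXO1-3A was followed by lower COL18A1, COL4A2 and COL5A1, 3 of 25 genes against 0.707% of all tested genes called lower, and no collagen gene was higher. COL18A1 differed by -0.36 (SE 0.08, adjusted p = 0.039 in edgeR), COL5A1 by -0.33 (SE 0.07, adjusted p = 0.025 in edgeR) and COL4A2 by -0.25 (SE 0.05, adjusted p = 0.021 in edgeR), and all 3 had no overlap between the conditions. The calls rested on single libraries, as did those over all tested genes, of which 99 were called. Without FOXL2C134W replicate B or C, or FOXL2C134W + FOXO1 replicate A or C, 0 collagen genes and 5 to 11 of all genes were called, and with only the 6 libraries of these conditions in the fit 0 and 32 were. Without FOXL2C134W replicate A, 5 collagen genes and 355 of all genes were called. COL18A1 then ranged from -0.36 to -0.29 over the 4 libraries that ended its call, COL5A1 from -0.32 to -0.28 and COL4A2 from -0.26 to -0.21.

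COL1A1 (-0.21 (adjusted p = 0.064 in edgeR)), COL4A1 (-0.15 (adjusted p = 0.077 in edgeR)) and COL7A1 (-0.51 (adjusted p = 0.097 in edgeR)) were also lower in all FOXL2C134W + FOXO1 libraries and did not pass the threshold. The same held for COL6A1, COL6A2, COL13A1 and COL27A1. The share of all tested genes without overlap was not counted, so the lack of overlap is given as a description only. By length and GC content, 2.82% of the long genes, 1.28% of the GC-rich genes and 8.27% of genes with both were called lower with FOXO1-3A, beside 3 of 11, 3 of 20 and 3 of 9 collagen genes, and in the last class the medians over collagen genes and over all genes were both -0.15. With the length offset, COL4A2 remained called and COL18A1 and COL5A1 were not.

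In FOXL2WT, 0 of 25 collagen genes were called on addition of FOXO1-3A by edgeR, where 0.0144% of all tested genes were called higher and 0.0361% lower. At an unadjusted p under 0.05 the numbers were 4 collagen genes and 1266 of all tested genes, and DESeq2 called 0 collagen genes. The values were 0.22 (adjusted p = 0.31 in edgeR) for COL5A1, 0.13 (adjusted p = 0.5 in edgeR) for COL1A1, 0.12 (adjusted p = 0.48 in edgeR) for COL4A2 and 0.10 (adjusted p = 0.74 in edgeR) for COL18A1, all above 0. Between FOXL2C134W + FOXO1 and FOXL2WT edgeR called 0 of 25, with 0.685% of all tested genes higher and 1.00% lower, while 7 collagen genes and 2572 genes in all had an unadjusted p under 0.05 and DESeq2 called 3 (COL12A1, COL4A2 and COL5A1). In edgeR these 3 gave 0.24 (adjusted p = 0.11 in edgeR), 0.18 (adjusted p = 0.059 in edgeR) and 0.24 (adjusted p = 0.07 in edgeR).

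The effect of FOXO1-3A differed between the FOXL2 forms for 3 collagen genes, by the interaction term, against 1.25% of all tested genes called in that direction. That share was not counted by length and GC content for this term. COL5A1 and COL4A2 belong to the class of long and GC-rich genes, whose share was above that of all genes in the comparisons counted. The interaction, the effect in FOXL2C134W minus that in FOXL2WT, was -0.55 (SE 0.09, adjusted p = 0.0087 in edgeR) for COL5A1, -0.37 (SE 0.07, adjusted p = 0.011 in edgeR) for COL4A2 and -0.34 (SE 0.07, adjusted p = 0.029 in edgeR) for COL1A1. For COL5A1 the mean with FOXO1-3A was the higher one in FOXL2WT, from 307 ± 26.1 to 358 ± 21.2 CPM (SD, n = 3), and the lower one in FOXL2C134W, from 454 ± 22.7 to 363 ± 27.4 CPM. COL4A2 went from 1575 ± 79.5 to 1711 ± 35.9 CPM and from 2118 ± 68.5 to 1784 ± 97.3 CPM. The interactions of COL5A1 and COL4A2 were called without each of the 12 libraries in turn, and that of COL1A1 was lost without FOXL2WT replicate B (-0.29), FOXL2C134W replicate B (-0.35) or C (-0.34), FOXL2WT + FOXO1 replicate A (-0.33) or B (-0.32), or FOXL2C134W + FOXO1 replicate A (-0.30) or C (-0.31). COL18A1 gave -0.47 (SE 0.11, adjusted p = 0.0504 in edgeR), not past the threshold. It was called in 4 of 9 alternatives that kept all libraries (DESeq2, DESeq2 size factors and both other filters), and without FOXL2WT replicate C (-0.54), FOXL2C134W replicate A (-0.49), or FOXL2C134W + FOXO1 replicate B (-0.57). FOXO1 RNA itself averaged 117 CPM in FOXL2WT + FOXO1 and 43.2 CPM in FOXL2C134W + FOXO1. With FOXO1-3A, SMAD3 RNA changed by -1.51 in FOXL2WT and -1.11 in FOXL2C134W on the log2 scale, and FOXL2 RNA by -0.55 and 0.05. The interaction was also called for SMAD3 (0.41, adjusted p = 0.0065 in edgeR) and FOXL2 (0.60, adjusted p = 0.033 in edgeR). The part of these RNAs in the collagen interactions was not tested.

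At the level of transcripts, the abundant genes differed in how far 1 isoform carried them. A protein-coding transcript of 5408 bases that begins at the start site used above, held 98.3% of the TPM of COL18A1 on average, and 97.6% to 98.9% by condition. A transcript of 6540 bases held 93.4% to 96.8% of COL4A1 and a transcript of 8442 bases held 93.3% to 95.0% of COL5A1 by condition. A transcript of 6446 bases held 76.3% to 81.6% of COL4A2, with 8.25% to 9.20% in a retained-intron transcript of 3630 bases. In COL1A1 the full-length transcript of 6727 bases held 45.8% to 52.4%, and the short retained-intron transcripts of 594 and 640 bases took 17.0% to 21.2% and 11.3% to 20.9%, so that the TPM of COL1A1 includes estimated RNA that does not encode the whole chain. In COL8A1 the first transcript, of 5515 bases, held only 32.1% to 39.0%, and a processed transcript of 190 bases took 9.95% to 26.4%, the most in Vectors. A transcript of 5490 bases held 72.6% to 78.0% of COL3A1. These shares are estimates from single-end reads of 75 bases and were not tested.

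The machinery that modifies, exports, cleaves, cross-links and binds collagen was examined as a list of 44 genes, of which 43 were tested. Between FOXL2C134W and FOXL2WT 1 of 43 was higher and 0 lower, beside 7.13% of all tested genes called higher, with a median of 0.01. It was MIA3, which helps load bulky procollagen into transport carriers from the endoplasmic reticulum, at 68.5 ± 3.56 CPM in FOXL2WT and 83.2 ± 10.0 CPM in FOXL2C134W (SD, n = 3), a log2 difference of 0.28 (SE 0.08, adjusted p = 0.041 in edgeR). Between FOXL2WT and Vectors 0 were higher and 10 lower, 6 of them among the 8 receptors and 2 among the 15 prolyl and lysyl modifiers, and 3.61% of all tested genes were called lower. Between FOXL2C134W and Vectors 1 was higher and 9 lower, with 6 of the 15 modifiers among the lower ones, beside 7.48% of all tested genes called higher and 7.24% lower. On addition of FOXO1-3A edgeR called 0 of the 43 in FOXL2WT and 0 in FOXL2C134W, with 2 and 7 at an unadjusted p under 0.05, and DESeq2 called 0 and 0.

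Over the 15 libraries, the log2 CPM of COL4A2 was most like that of RRBP1 (Pearson r = 0.975), NUMA1 (0.973), BCL9L (0.967), LTBP2 (0.961) and ZMIZ1 (0.959) among all tested genes outside the collagens. All 5 were rich in G and C, at 58.4% to 64.2%, as was COL4A2 at 61.2%, and no shared role of these genes was tested. Among collagens the closest were COL5A1 (0.961), COL18A1 (0.939), COL6A2 (0.907) and COL13A1 (0.904), COL3A1 (0.06) and COL1A2 (0.05) were near 0, and COL9A2 was at -0.54. The points are libraries of 5 conditions that share depth and composition with all genes, and the correlations are a description of this set.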

How the data were processed

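The 15 libraries of HGrC1 cells were assigned to 5 conditions with 3 replicates each from their labels. From single-end reads of 75 bases, the authors estimated transcripts with Salmon 1.1.0 on hg38 with GENCODE identifiers, and they deposited the estimated counts per gene as whole numbers, without normalization. The deposited TPM values, scaled for transcript length and library size, are the authors' Salmon output, and they were summed per gene here for levels and ratios. Columns left unmapped numbered 0. Transcript length, GC content and coordinates came from the deposited lengths and GENCODE 44 (GRCh38), which may not be the authors' release.

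The software was DESeq2 1.42.0, edgeR 4.0.16 and limma 3.58.1 under R 4.3.3, and figures were drawn in Python 3.11.15 with matplotlib 3.10.9. All 15 libraries entered 1 quasi-likelihood fit with filterByExpr (13868 genes), TMM scaling and 1 term per condition. A gene was called at an adjusted p (Benjamini-Hochberg, over all genes tested) under 0.05, and 7 comparisons were made. CPM were scaled with the TMM factors. The scripts were tested on simulated data. Depth was 14962245 to 25339094 counts per library, a count of 0 allows up to 3, and such limits cover counting error only. Pairs of replicates differed by more than sampling noise (chi-square per degree of freedom 2.21 to 8.65).

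The alternatives were DESeq2, DESeq2 with transcript length offsets (the route the authors describe), DESeq2 size factors, filters of at least 1 count in any library or 10 counts in every library, only the groups compared, a replicate block, lowess offsets (span 0.3) for length or for length and GC content, CPM in place of TPM for the chain ratios, and leaving out each library. The members and lists were chosen with earlier results of these data known. Values in every library are given for collagen genes called in at least 1 comparison and for the chains of types I, III, IV (COL4A1 and COL4A2), V, VI and XVIII, 18 genes in all, and the others are given by range. Of the biosynthesis list, genes called in FOXL2C134W against FOXL2WT or on addition of FOXO1-3A to FOXL2C134W are named, and likeness is the Pearson correlation of log2 CPM with COL4A2.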

Additional observations from a re-analysis of the deposited data

Results flagged for a closer look

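For 3 collagen genes the response to FOXO1-3A differed between the FOXL2 forms by the interaction term of the edgeR fit. The values were -0.55 (-0.545) for COL5A1, -0.37 (-0.3669) for COL4A2 and -0.34 (-0.3395) for COL1A1 on the log2 scale, each being the effect in FOXL2C134W minus that in FOXL2WT. The interactions of COL5A1 and COL4A2 stayed past the threshold in all 12 fits that left out a library and in all 9 other alternatives, and with offsets for length and GC content their sizes were -0.36 and -0.23. That of COL1A1 stayed past it in 5 of the 12 and in 8 of the 9. FOXL2, SMAD3 and FOXO1 RNA differed between the 4 conditions of this term, and their part was not tested.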

How the results depend on the processing

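The counts of collagen genes called moved by over 1.5 times under these alternatives. A filter of at least 1 count in any library, which tests 41 collagen genes, gave 10 in FOXL2C134W against Vectors (6 in the fit reported), 1 in FOXL2WT + FOXO1 against FOXL2WT (0), 6 in FOXL2C134W + FOXO1 against FOXL2C134W (3), 3 in FOXL2C134W + FOXO1 against FOXL2WT (0) and 6 in the interaction (3). DESeq2 gave 5 in FOXL2C134W + FOXO1 against FOXL2C134W and 3 in FOXL2C134W + FOXO1 against FOXL2WT, and with transcript length offsets it gave 1 in the latter and 1 in FOXL2WT + FOXO1 against FOXL2WT. With only the groups compared, FOXL2C134W + FOXO1 gave 0 against FOXL2C134W and 3 against FOXL2WT. The length offset gave 1 in FOXL2C134W + FOXO1 against FOXL2C134W, and the length and GC offset gave 1 there and 2 in FOXL2C134W + FOXO1 against FOXL2WT. Leaving out a library gave 7 to 12 in FOXL2C134W against FOXL2WT, 6 to 11 in FOXL2WT against Vectors, 3 to 7 in FOXL2C134W against Vectors, 0 to 5 in FOXL2C134W + FOXO1 against FOXL2C134W, 0 to 1 in FOXL2C134W + FOXO1 against FOXL2WT and 2 to 5 in the interaction. With CPM in place of TPM the log2 ratio differed by -0.48 for COL5A2/COL5A1 in FOXL2C134W against FOXL2WT. In FOXL2C134W + FOXO1 against FOXL2C134W it differed by -0.0143 for COL6A2/COL6A1, by 0.34 for COL1A2/COL1A1 (-0.03 in TPM, within the spread of few counts) and by -0.10 for COL4A2/COL4A1, whose exact permutation p was then 0.1 and not 0.2. Signs turned for COL4A1 (-0.0121 in DESeq2 with transcript length offsets, -0.0769 with the length offset, -0.0928 with the length and GC offset, where it was called lower) and COL5A1 (-0.02 with the length and GC offset) in FOXL2C134W against Vectors, for COL5A2 in FOXL2C134W against FOXL2WT (-0.0017 in DESeq2 with transcript length offsets, -0.0573 with the length offset, -0.0557 with the length and GC offset), for COL1A2 in FOXL2WT against Vectors (0.37 in DESeq2 with transcript length offsets) and for COL3A1 in FOXL2C134W against FOXL2WT (-0.1519 to 0.0084 over the fits without a library, above 0 without FOXL2WT replicate C). The offsets subtract the trend of each library with length, and other causes were not tested. Of 898 fits of single genes 754 kept direction and side of the threshold, as did 168 of 195 counts and ratios. The labels do not say whether libraries of the same replicate letter were handled together. Correlations of deviations lay between -0.164 and 0.166 for the same letter and between -0.122 and 0.123 for other letters, which cannot decide this. The replicate block gave 10 calls in FOXL2C134W against FOXL2WT, 12 in FOXL2WT against Vectors and 6 in FOXL2C134W against Vectors. It gave 2 in FOXL2C134W + FOXO1 against FOXL2C134W and 3 in the interaction. Genes with few counts, such as COL1A2, COL4A4, COL9A2 and COL14A1, have standard errors of 0.3 to 0.6, which limits what could be detected.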
